A study of Mus musculus with 2 samples.

Results

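The D-type cyclins and the inhibitors of cyclin-dependent kinases (CDKs) set how a cell leaves or stays in the first gap phase of the cell cycle. The 9 genes described here were chosen by name, as the rows of the deposited gene table with the symbols Ccnd1, Ccnd2, Ccnd3, Cdkn1a, Cdkn1b, Cdkn2a, Cdkn2c, Cdkn2d and Myc, of 28692 genes in all. Cyclin D1, D2 and D3 bind CDK4 or CDK6 and start the phosphorylation of the retinoblastoma protein, which frees the E2F factors that turn on the genes of DNA replication. The inhibitors of the INK4 family bind CDK4 and CDK6 themselves, while those of the CIP/KIP family bind complexes of a cyclin and a CDK. Myc is a transcription factor that promotes growth and entry into the cycle. In the peritoneal cavity the large macrophages renew themselves by local division, B-1 cells persist by self-renewal, and B-2 and T cells are mostly recirculating and at rest.

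Cells washed from the peritoneal cavity were profiled one by one with the droplet system of 10x Genomics, which reads the 3′ end of polyadenylated RNA and tags each captured molecule with a unique molecular identifier (UMI). There was 1 library of WT mice and 1 library of Xbp1dIEC mice, which lack the stress response factor Xbp1 in the intestinal epithelium. Each library pooled the cells of 4 male C57BL/6 mice, and both groups were germ-free and 10 weeks old. The deletion acts in gut epithelial cells, so the Xbp1 level of peritoneal cells (79.0 CPM over all kept WT cells and 83.9 CPM over all kept Xbp1dIEC cells, where CPM is the UMIs of a gene scaled to a total of 1000000) does not check it. With 1 pooled library per genotype there is no replicate and no test. All intervals below are exact 95% intervals that cover counting error only, and a difference between the libraries can be a difference between 2 pools of mice or 2 preparations.

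The WT library held 6204 barcodes and 56229330 UMIs, and the Xbp1dIEC library held 6246 barcodes and 49703442 UMIs. WT cells had a median of 8323.5 UMIs, and Xbp1dIEC cells a median of 7279.5. After filtering, 6058 and 6113 cells were kept, of which 55 in each library carried a barcode found in both. Cells were assigned to 5 classes by the UMIs of marker genes. Large macrophages (2453 in WT and 2313 in Xbp1dIEC) had 5 or more UMIs of a macrophage list with at least 1 from Gata6 or Timd4. B-1 cells numbered 474 and 781, B-2 cells 1030 and 895, T cells 344 and 289, and other cells 1000 and 1245. The gates are not pure. Of the other cells, 72.6% in WT and 72.8% in Xbp1dIEC had 5 or more macrophage-list UMIs and only lacked a Gata6 or Timd4 UMI. The B-2 gate held some RNA of the B-1 marker list, at 130 CPM in WT and 163 CPM in Xbp1dIEC, against 855 and 954 CPM in the B-1 gate. Of the cells in the T gate, 43.9% and 48.1% had 2 or more UMIs of the natural killer genes Nkg7, Klrk1 and Ncr1.

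Each D cyclin had its own distribution over the cell classes. Ccnd1 was high in macrophages and low in lymphocytes, Ccnd2 was the reverse, and Ccnd3 was found in every class, macrophages included. Levels are given as CPM over the summed UMIs of all cells in a class and are compared across classes for 1 gene at a time.

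Ccnd1 (ENSMUSG00000070348, GRCm38 chr7:144929931-144939925, minus strand) encodes cyclin D1, a target of growth factor signals. In large macrophages it was at 171 CPM (166 to 176) in WT and 130 CPM (125 to 135) in Xbp1dIEC. Other cells were next, at 168 and 121 CPM, and their interval overlapped that of large macrophages in both libraries. T cells were at 31.9 and 19.4 CPM, B-1 cells at 8.70 and 6.33 CPM, and B-2 cells at 9.56 and 3.84 CPM. The T gate value lay in a small subset of its cells. In the 304 WT and 251 Xbp1dIEC cells of the T gate with under 20 UMIs of the class II genes H2-Ab1, H2-Aa, H2-Eb1 and Cd74, Ccnd1 had 0 UMIs in each library. The exact intervals reach up to 3.12 and 3.75 CPM. All of its T gate UMIs, 51 in WT and 26 in Xbp1dIEC, lay in the 40 and 38 cells with 20 or more class II UMIs. This split was chosen after the values were seen.

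In B-1 cells, Ccnd1 stood at 5.09% of its large macrophage level in WT and 4.88% in Xbp1dIEC. The macrophage transcripts measured in the same way were lower. Lyz2, the macrophage lysozyme, stood in B-1 cells at 3.29% and 2.304% of its large macrophage level, Prg4 at 1.77% and 1.12%, Alox15 at 1.48% and 1.08%, and Adgre1 at 1.87% and 2.52%. The Ccnd1 values in B-1 cells rested on 39 WT UMIs, 10 of them in 1 cell, and on 52 Xbp1dIEC UMIs. With the narrow B-1 gate described below, Ccnd1 was at 5.30 CPM (2.97 to 8.74) in WT and 6.84 CPM (4.79 to 9.47) in Xbp1dIEC. In B-2 cells Ccnd1 stood at 5.59% and 2.96%, Lyz2 at 3.76% and 2.17%, and Adgre1 at 2.64% and 2.71%. How much of the Ccnd1 signal in lymphocytes is free RNA was not tested.

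Ccnd2 (ENSMUSG00000000184, chr6:127125162-127152193, minus strand) encodes cyclin D2, the D cyclin that B cells need to divide after antigen receptor signals and that peritoneal B-1 cells depend on. In WT its classes stood in an order with no overlap between neighbours. T cells were at 425 CPM (394 to 459), B-1 cells at 305 CPM (289 to 321), B-2 cells at 174 CPM (164 to 184), other cells at 38.3 CPM (34.3 to 42.7) and large macrophages at 4.98 CPM (4.14 to 5.94). In Xbp1dIEC the B-1 cells stood first, at 544 CPM (529 to 561), ahead of T cells at 440 CPM (405 to 477) and B-2 cells at 373 CPM (358 to 388). Large macrophages were again lowest, at 7.11 CPM. There, Ccnd2 was at 1.63% of the B-1 level in WT and 1.31% in Xbp1dIEC, beside 1.15% and 1.09% for the B cell receptor gene Cd79a.

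Among the other cells, Ccnd2 was in those with few macrophage transcripts. The 274 WT and 339 Xbp1dIEC cells with under 5 macrophage-list UMIs had 119 CPM in each library, while those with 5 or more had 12.9 and 14.2 CPM. Within the T gate, cells with 2 or more UMIs of the natural killer genes had 446 CPM in WT and 420 CPM in Xbp1dIEC, and the remaining cells 407 and 460 CPM. The intervals of these subsets overlapped in each library.

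Ccnd3 (ENSMUSG00000034165, chr17:47505051-47599691, plus strand) encodes cyclin D3, the cyclin of thymocyte and germinal centre expansion. Its classes differed least among the D cyclins, with a top level 2.93-fold the lowest in WT and 1.91-fold in Xbp1dIEC. T cells led at 202 CPM (181 to 226) and 212 CPM (188 to 238). Large macrophages were at 159 and 147 CPM and other cells at 148 and 144 CPM, and these neighbours overlapped in both libraries. B-2 cells were at 82.7 and 111 CPM and B-1 cells at 69.2 and 115 CPM, again with overlapping intervals.

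**Figure D1:**
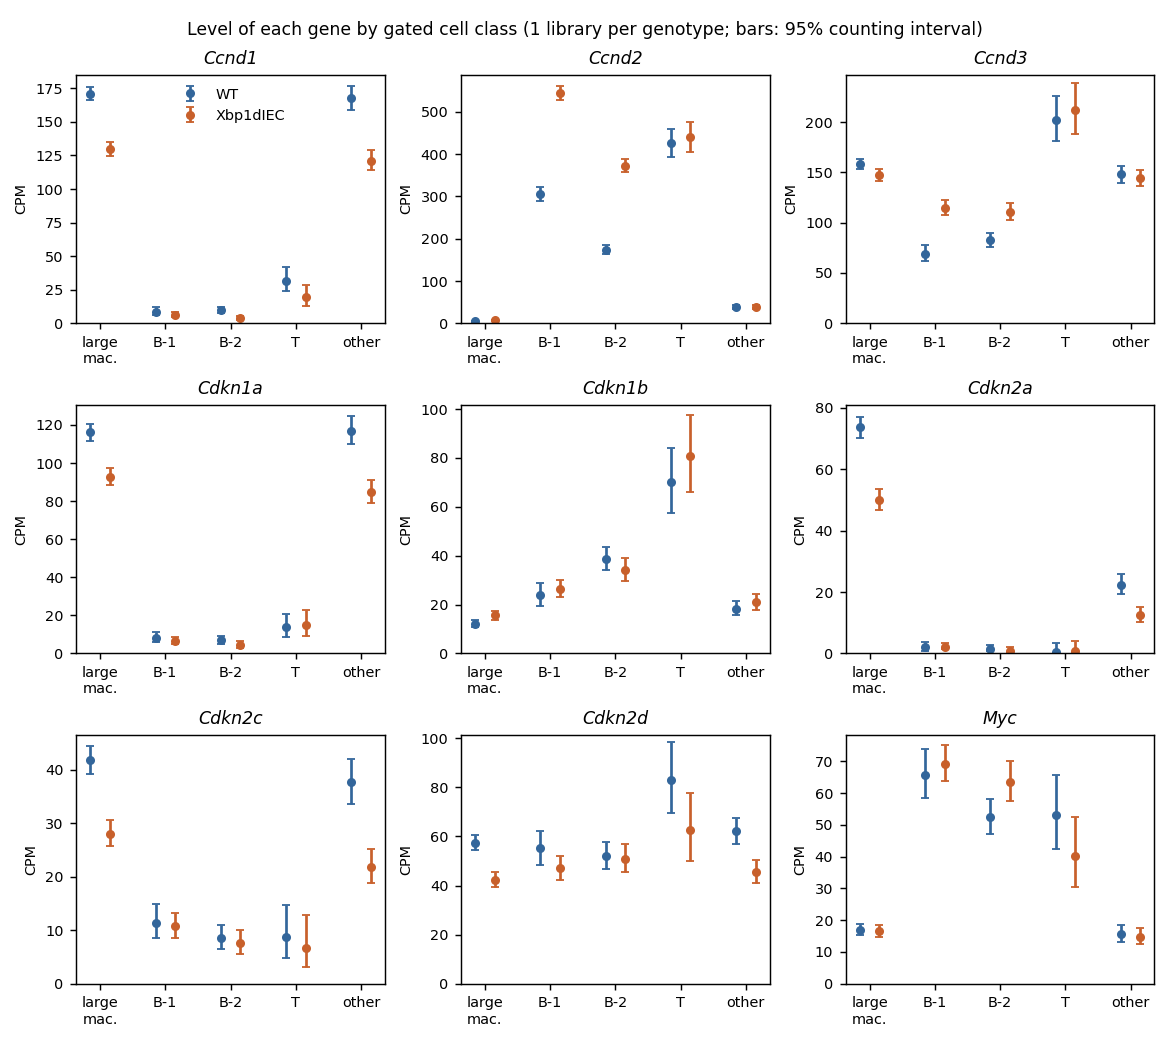
Level of each of the 9 genes (CPM, vertical axis starting at 0) in the 5 gated cell classes (horizontal axis), with WT in blue and Xbp1dIEC in orange; bars are exact 95% counting intervals and each point is 1 library. Ccnd1, Cdkn1a, Cdkn2a and Cdkn2c are high in large macrophages, Ccnd2 and Myc in lymphocytes, and Ccnd2 in B-1 cells stands at 305 CPM in WT and 544 CPM in Xbp1dIEC.

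The CIP/KIP inhibitors divided between the myeloid and lymphoid cells. Cdkn1a (ENSMUSG00000023067, chr17:29090976-29100727, plus strand) encodes p21, a target of p53, and followed the distribution of Ccnd1. It was at 116 CPM (112 to 120) in WT and 92.6 CPM (88.3 to 97.2) in Xbp1dIEC large macrophages, and at 117 and 84.9 CPM in other cells. In T cells it was at 13.7 and 14.9 CPM, with 17 of 22 WT and 18 of 20 Xbp1dIEC UMIs in the same class II cells as Ccnd1. The remaining T gate cells were at 4.23 and 2.03 CPM. B-1 cells were at 8.26 and 6.70 CPM, and B-2 cells at 6.92 and 4.33 CPM. The macrophage level in WT was thus 16.8-fold that of B-2 cells, and in Xbp1dIEC 21.4-fold.

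Cdkn1b (ENSMUSG00000003031, chr6:134920401-134925513, plus strand) encodes p27, which holds resting lymphocytes out of the cycle, and was higher in the lymphocyte than in the myeloid classes. T cells were at 70.0 CPM (57.6 to 84.2) in WT and 80.7 CPM (66.2 to 97.4) in Xbp1dIEC, B-2 cells at 38.6 and 34.0 CPM, and B-1 cells at 23.9 and 26.4 CPM. Other cells had 18.4 and 20.9 CPM and large macrophages the least, 12.2 CPM (10.9 to 13.7) and 15.6 CPM (13.8 to 17.5). In WT, B-2 and B-1 cells did not overlap, and in Xbp1dIEC their intervals met.

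Among the INK4 genes, the one with the widest range over the classes was Cdkn2a (ENSMUSG00000044303, chr4:89274471-89294653, minus strand). Its locus makes 2 unrelated proteins, p16Ink4a and p19Arf, from separate first exons joined to shared later exons, and 3′ UMIs cannot tell them apart. Cdkn2a was at 73.6 CPM (70.3 to 77.1) in WT and 50.05 CPM (46.8 to 53.4) in Xbp1dIEC large macrophages. B-1 cells had 2.01 and 2.19 CPM, B-2 cells 1.62 and 0.961 CPM, and T cells 1 UMI in each library. Against the level that 3 UMIs would give in T cells, the large macrophage level was at least 39.3-fold higher in WT and at least 22.3-fold higher in Xbp1dIEC. Other cells were at 22.3 and 12.4 CPM, and there too the gene was in the macrophage-like cells, at 28.2 and 15.6 CPM in those with 5 or more macrophage-list UMIs and 3.48 and 2.01 CPM in the rest.

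Cdkn2c (ENSMUSG00000028551, chr4:109660876-109667189, minus strand) encodes p18Ink4c. It was at 41.8 CPM (39.3 to 44.4) in WT and 28.1 CPM (25.7 to 30.6) in Xbp1dIEC large macrophages, at 37.6 and 21.8 CPM in other cells, and between 6.72 and 11.4 CPM in the lymphocyte classes. Cdkn2d (ENSMUSG00000096472, chr9:21288410-21291407, minus strand) encodes p19Ink4d and was the most even member, with a top level 1.59-fold the lowest in WT and 1.48-fold in Xbp1dIEC. T cells were highest, at 83.1 CPM (69.5 to 98.4) and 62.8 CPM (50.1 to 77.7), and the remaining classes lay between 52.2 and 62.1 CPM in WT and between 42.3 and 50.9 CPM in Xbp1dIEC.

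The bases before the start sites of the INK4 genes are shown because these 3 genes differ in their relation to the cycle (described with the cycling cells), and because Cdkn2a has a separate start for each of its proteins. RefSeq promoter windows (GRCm38.p6) were at hand for 6 of the 9 members, in 10 windows. Of the 2 Cdkn2c windows only the upstream one is printed, and the downstream one held none of the motifs searched. Each sequence below is the 250 bases before a start site, read 5′ to 3′ on the strand of the gene, and the capitals mark matches to the E2F-like letters TTTNNCGC on either strand.
Cdkn2a upstream (p19Arf) start, chr4:89294620-89294869, minus strand: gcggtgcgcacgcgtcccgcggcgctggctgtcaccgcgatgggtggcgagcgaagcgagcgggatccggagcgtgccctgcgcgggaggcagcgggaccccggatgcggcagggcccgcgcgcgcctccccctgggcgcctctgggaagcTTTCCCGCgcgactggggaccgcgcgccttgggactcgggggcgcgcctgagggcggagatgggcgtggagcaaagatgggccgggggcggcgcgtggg
Cdkn2a downstream (p16Ink4a) start, chr4:89282193-89282442, minus strand: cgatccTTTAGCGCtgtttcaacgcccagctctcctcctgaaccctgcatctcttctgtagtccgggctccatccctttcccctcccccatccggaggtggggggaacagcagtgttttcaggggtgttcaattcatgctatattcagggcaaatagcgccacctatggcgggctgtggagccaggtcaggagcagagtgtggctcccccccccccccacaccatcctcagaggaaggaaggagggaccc
Cdkn2c upstream start, chr4:109666757-109667006, minus strand: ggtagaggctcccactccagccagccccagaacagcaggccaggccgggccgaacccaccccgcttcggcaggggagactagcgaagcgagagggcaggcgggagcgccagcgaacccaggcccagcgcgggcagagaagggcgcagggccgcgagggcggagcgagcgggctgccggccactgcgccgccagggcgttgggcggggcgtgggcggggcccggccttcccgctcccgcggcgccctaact
Cdkn2d start, chr9:21291210-21291459, minus strand: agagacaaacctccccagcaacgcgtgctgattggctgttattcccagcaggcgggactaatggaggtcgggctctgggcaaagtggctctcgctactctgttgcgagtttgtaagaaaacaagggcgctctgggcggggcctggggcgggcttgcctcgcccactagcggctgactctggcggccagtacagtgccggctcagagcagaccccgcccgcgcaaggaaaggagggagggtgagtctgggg

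Both Cdkn2a windows held these letters, and they were the only 2 of the 10 windows that did. Of all 32851 promoter windows of the same length, 4.28% held them. The SP1 box GGGCGG was in 7 of the 10 windows (32.7% of all windows), while the E-box CACGTG (6.02% of all) and the letters TTTGAA of the CHR element (16.0% of all) were in 0 of the 10. A match describes letters in a window and is no evidence that a factor binds there.

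Myc (ENSMUSG00000022346, chr15:61985391-61990374, plus strand) was a lymphocyte gene in these libraries. It was at 65.8 CPM (58.5 to 73.8) in WT and 69.3 CPM (63.7 to 75.2) in Xbp1dIEC B-1 cells. B-2 cells had 52.4 and 63.6 CPM and T cells 53.1 and 40.3 CPM. Large macrophages were at 17.0 and 16.5 CPM and other cells at 15.5 and 14.9 CPM, with overlapping intervals. In WT the T and B-2 cells overlapped, and in Xbp1dIEC the T cells stood below both B classes.

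The genes whose level over the 10 class-by-library values was most like that of a member were sought among 10826 genes, by Pearson correlation of log2(CPM + 10). The points share libraries, so the values are a description. For Ccnd1 the nearest were Lamtor1, Cd68 and Slc16a3 (r between 0.997 and 0.998), and for Cdkn1a they were Tmem159, Lima1 and Twf1 (0.998 for each). Ccnd2 was nearest to Gramd4, Uck2 and Syne1 (0.979 to 0.985), and Cdkn2a to Lims2, Lyplal1 and Cped1 (0.996 to 0.998). The nearest to Myc were Dtnb and the translation genes Eef1g and Rpl13 (0.988 to 0.992). Cdkn1b was nearest to Ppm1b, Tes and Yy1 (0.988 to 0.994), and Cdkn2c to Cox5b, Pfdn1 and Mrps18c (0.990 to 0.993). Ccnd3 had Exoc6b, Dirc2 and Clip1 (0.943 to 0.956), and Cdkn2d had Akr1b3, Psmb3 and Mdh2 (0.944 to 0.958).

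Between the libraries, the member with the largest ratio upwards was cyclin D2, which passed the size rule in B-1 and B-2 cells and not in the other 3 classes. A gene was called when its log2 ratio of Xbp1dIEC over WT, with 1 CPM added to each level, was past 1.5-fold in either direction and it had 30 or more UMIs. In B-1 cells 2 of the 8 members measured were called, both higher in Xbp1dIEC, where 7.32% of all genes were called either way and 4.38% higher (2.95% lower). Ccnd2 went from 305 to 544 CPM (log2 0.84, 0.75 to 0.92). Ccnd3 went from 69.2 to 115 CPM (log2 0.72, 0.54 to 0.91). Both intervals lie above 0, and the other 6 members measured there had intervals that include 0.

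In B-2 cells 2 of 8 members were called, where 5.99% of all genes were called, 2.24% higher and 3.74% lower. Ccnd2 was at 174 CPM in WT and 373 CPM in Xbp1dIEC (log2 1.10, 1.00 to 1.20), the 99.7th percentile of all genes measured. Ccnd1 was at 9.56 CPM in WT and 3.84 CPM in Xbp1dIEC (log2 -1.12, -1.71 to -0.54). This rested on 65 and 24 UMIs, and 17 of the 65 came from 1 WT cell. Lyz2 in B-2 cells, relative to large macrophages, was also lower in Xbp1dIEC (3.76% and 2.17%), and its part in the Ccnd1 value was not tested. Ccnd3 (82.7 and 111 CPM, log2 0.42, 0.26 to 0.58) and Myc (52.4 and 63.6 CPM, log2 0.28, 0.07 to 0.48) were higher in Xbp1dIEC without passing 1.5-fold.

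The content of the B-2 gate, and of the B-1 gate, also differed between the libraries. Summed over the 7 genes of the B-1 list, B-2 gate cells had 130 CPM in WT and 163 CPM in Xbp1dIEC, with 5 genes higher and 2 lower (Ahnak2 and Ctla4) in Xbp1dIEC. Of the 5, Zcwpw1 differed most (18.8 and 39.9 CPM), and it was also higher inside the B-1 gate (331 and 538 CPM). Bhlhe41 was higher inside the B-1 gate too (86.1 and 102 CPM). Ahnak2 (110 and 68.8 CPM), Zbtb32 (193 and 152 CPM), Plscr1 (111 and 80.5 CPM), Ctla4 and Cd5 were lower there. In the B-2 gate the B-2 list summed to 1011 and 829 CPM, with all 4 of its genes lower in Xbp1dIEC. The part of these differences in the Ccnd2 and Ccnd3 values of either gate was not tested. With B-2 cells limited to those with a Fcer2a UMI and no B-1 list UMI (346 and 252 cells, a gate chosen after the values were seen), Ccnd2 was at 121 CPM in WT and 183 CPM in Xbp1dIEC, a log2 ratio of 0.59 (0.31 to 0.88). Ccnd3 there was at 92.2 and 83.4 CPM, a log2 ratio of -0.14 (-0.53 to 0.23), so its direction turned. Ccnd1 there was at 3.52 and 3.62 CPM on 6 and 4 UMIs, and its call was lost. In the matching narrow B-1 gate (322 and 541 cells), drawn with the same B-1 list, the values stayed near those of the wide gate. Ccnd2 was at 314 and 541 CPM there and Ccnd3 at 69.2 and 113 CPM.

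Resting B-1 cells alone gave the same picture, with Ccnd2 at 290 and 537 CPM (log2 0.88, 0.79 to 0.98) and Ccnd3 at 66.8 and 115 CPM (log2 0.77, 0.57 to 0.98). The Ccnd2 difference was seen across many cells. In WT 71.1% of B-1 cells had a Ccnd2 UMI (66.8 to 75.1) and in Xbp1dIEC 85.4% (82.7 to 87.8). With every cell thinned to 2400 UMIs the shares were 41.4% and 60.6%. Large macrophages had a Ccnd2 UMI in 4.24% and 4.80% of cells, at median depths of 9860 and 7716 UMIs against 8146 and 8883 in B-1 cells. Cells with 6 or more Ccnd2 UMIs made up 81 of 474 WT and 289 of 781 Xbp1dIEC B-1 cells, and the highest counts in a cell were 20 and 40.

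T cells differed little in the same genes. Ccnd2 was at 425 and 440 CPM (log2 0.05, -0.11 to 0.21) and Ccnd3 at 202 and 212 CPM (log2 0.07, -0.17 to 0.30). Of the 7 members measured there 1 was called, where 9.65% of all genes were (4.67% higher and 4.98% lower), and it was Ccnd1 (log2 -0.69, -1.39 to -0.00), whose T gate UMIs all came from the class II cells described above. Cdkn1b was at 70.0 and 80.7 CPM (log2 0.20, -0.19 to 0.59).

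In large macrophages 0 of the 9 members were called, where 3.08% of all genes were called either way, 0.364% higher and 2.71% lower. With no replicates there is no p-value to set beside this count. Several members nevertheless lay low. The median log2 ratio of the 9 was -0.32, against -0.06 over all 10977 genes measured. Cdkn2c (41.8 and 28.1 CPM, log2 -0.56, -0.71 to -0.41) and Cdkn2a (73.6 and 50.05 CPM, log2 -0.55, -0.66 to -0.43) came nearest to the threshold. Cdkn2d was at 57.4 and 42.3 CPM (log2 -0.43, -0.56 to -0.31), and Ccnd1 at 171 and 130 CPM (log2 -0.39, -0.47 to -0.32). Cdkn1a had a log2 ratio of -0.32 (-0.41 to -0.24) and Ccnd3 of -0.11 (-0.18 to -0.04). Cdkn1b (12.2 and 15.6 CPM, log2 0.33, 0.10 to 0.55) and Ccnd2 (4.98 and 7.11 CPM, log2 0.44, 0.12 to 0.75) were higher in Xbp1dIEC. Ccnd2 was there at only 1.63% and 1.31% of its B-1 level, beside 1.15% and 1.09% for Cd79a. In resting large macrophages the Ccnd2 interval included 0 (log2 0.34, -0.02 to 0.69). How much of this Ccnd2 signal is free RNA of B cells was not tested. The Myc interval included 0 (log2 -0.04, -0.25 to 0.16).

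Among the other cells, which are mostly cells with macrophage-list UMIs, Ccnd1, Cdkn1a, Cdkn2a, Cdkn2c and Cdkn2d were again lower in Xbp1dIEC. They differ from large macrophages in more than the gate markers, and over all of them the class II gene H2-Ab1 was at 2349 and 1854 CPM against 108 and 77.5 CPM in large macrophages. There 2 of 9 members were called, both lower in Xbp1dIEC, where 5.39% of all genes were called, 1.42% higher and 3.98% lower. They were Cdkn2a (22.3 and 12.4 CPM, log2 -0.80, -1.13 to -0.47) and Cdkn2c (37.6 and 21.8 CPM, log2 -0.76, -1.02 to -0.51). Both calls were lost, and Cdkn2c turned to 0.12 (-0.67 to 0.92), with the gate that moves all macrophage-list cells to the large macrophages, which leaves 274 and 339 other cells with 11 Cdkn2a and 50 Cdkn2c UMIs over both libraries. Ccnd1 and Cdkn1a each had a log2 ratio of -0.46 and Cdkn2d of -0.44, with intervals below 0.

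**Figure D2:**
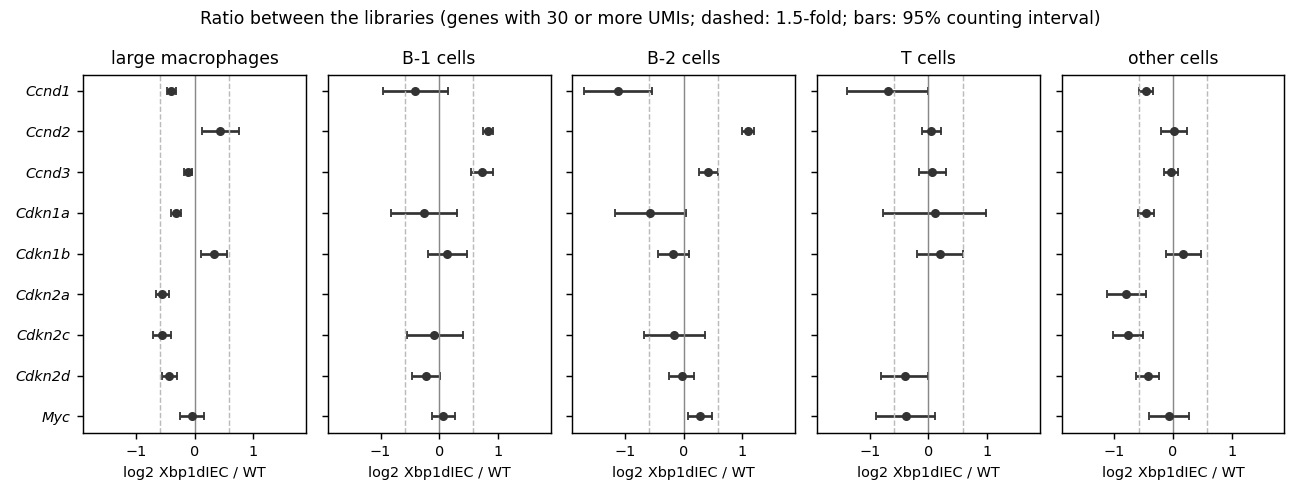
Log2 ratio of Xbp1dIEC over WT (horizontal axis, 1 CPM added) for each member with 30 or more UMIs in the 5 cell classes; bars are exact 95% counting intervals and dashed lines mark 1.5-fold. Ccnd2 lies at 0.84 in B-1 and 1.10 in B-2 cells and at 0.05 in T cells, and Cdkn2a and Cdkn2c lie lowest in large macrophages and other cells.

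The spread of the counts per cell was described for each member. If molecules are spread evenly, the variance of the thinned counts over their mean (the Fano factor) is near 1. In large macrophages it was 1.02 in WT and 1.04 in Xbp1dIEC for Ccnd3, 1.02 for Cdkn1b in each library, and 1.06 and 1.13 for Cdkn2d. Ccnd1 had 1.29 in each library and Cdkn1a 1.41 and 1.48. Cdkn2c had 1.04 and 1.08, Ccnd2 1.17 and 1.13, and Myc 1.17 and 1.03. Cdkn2a had the largest factor, with 1.94 and 1.52. For the same relative spread the factor rises with the level of a gene. It therefore does not rank genes of unlike level by how uneven they are.

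Cdkn2a was found in fewer large macrophages than an even spread of its molecules would give. A Cdkn2a UMI was found in 24.9% of WT cells (23.2 to 26.7) and 15.7% of Xbp1dIEC cells (14.2 to 17.2), and in 1.899% and 2.18% of B-1 cells at median depths of 8146 and 8883 UMIs. After thinning, 12.7% and 9.17% of large macrophages had one, where an even spread would give 17.1% and 11.7%. The highest count in a cell was 20 in WT and 13 in Xbp1dIEC. The shortfall was not particular to Cdkn2a. Ccnd1 UMIs were in 58.8% and 46.7% of large macrophages. After thinning they were in 29.0% and 22.1%, where an even spread would give 32.7% and 24.5%. Cdkn1a UMIs were in 21.0% and 16.0% after thinning, where an even spread would give 24.3% and 19.2%.

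Ccnd2 was uneven in B cells, with a Fano factor of 1.83 and 1.78 in B-1 cells and 1.74 and 2.08 in B-2 cells, and less so in T cells (1.30 in each library). In thinned large macrophages, Ccnd1 and Cdkn1a were found together in 126 WT cells, where independence would give 149, and in 78 Xbp1dIEC cells, where it would give 81.7. Ccnd1 and Cdkn2a were together in 76 WT cells (90.4 if independent) and 41 Xbp1dIEC cells (46.9). Among other cells, Ccnd1 and Cdkn1a were together in 51 WT cells (61.1) and 40 Xbp1dIEC cells (38.2). Ccnd1 and Cdkn2a were together there in 12 (13.2) and 10 (6.73), so the Xbp1dIEC counts were not below independence. In B-2 cells, Ccnd2 and Myc were together in 36 WT cells (26.4) and 54 Xbp1dIEC cells (41.8). In B-1 cells this pair was in 40 WT cells (33.9) and 74 Xbp1dIEC cells (72.1). These are counts over cells of 1 library each and were not tested.

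**Figure D3:**
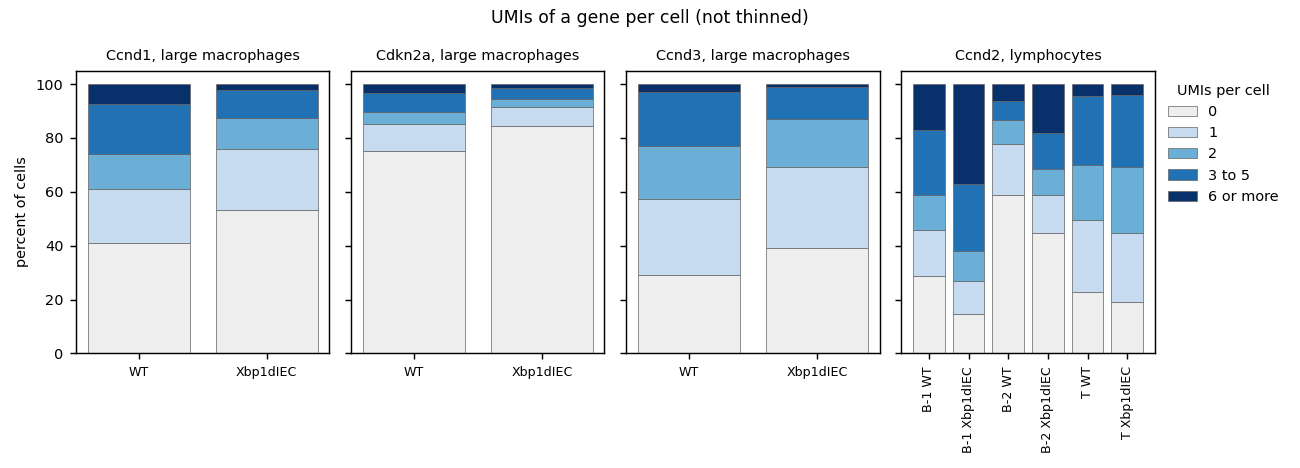
Share of cells (percent, vertical axis) with 0, 1, 2, 3 to 5 and 6 or more UMIs of Ccnd1, Cdkn2a and Ccnd3 in large macrophages and of Ccnd2 in B-1, B-2 and T cells of each library, without thinning. Cdkn2a is at 0 in most large macrophages, with a UMI in 24.9% of WT and 15.7% of Xbp1dIEC cells, and B-1 cells with 6 or more Ccnd2 UMIs number 81 of 474 in WT and 289 of 781 in Xbp1dIEC.

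Dividing and resting cells were then compared within each library. A cell was called cycling with 3 or more UMIs over 24 genes of S phase and mitosis after thinning to 2400 UMIs, and resting with 0. None of the members is in that list. Cycling cells were 170 (6.93%, 5.96 to 8.01) of the WT and 81 (3.50%, 2.79 to 4.33) of the Xbp1dIEC large macrophages. They were deeper than resting ones, with median depths of 15611 and 9562 UMIs in WT and 12685 and 7609.5 in Xbp1dIEC. In WT 6 of the 9 members were called, where 24.4% of all genes were. Of these, 3 were higher in cycling cells (15.6% of all genes) and 3 lower (8.74%). In Xbp1dIEC 6 members were called, where 32.2% of all genes were. There 4 were higher (19.8% of all genes) and 2 lower (12.4%).

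The INK4 genes split. Cdkn2c and Cdkn2d were far higher in cycling large macrophages and Cdkn2a was lower. Cdkn2c was at 154 CPM in cycling and 27.7 CPM in resting WT cells (log2 2.44, 2.24 to 2.62), and at 137 and 21.8 CPM in Xbp1dIEC (log2 2.60, 2.296 to 2.89). Cdkn2d was at 147 and 46.4 CPM in WT (log2 1.65, 1.47 to 1.82) and 134 and 36.9 CPM in Xbp1dIEC (log2 1.83, 1.54 to 2.11). Cdkn2a was at 40.1 and 83.4 CPM in WT (log2 -1.04, -1.34 to -0.75) and 23.7 and 54.1 CPM in Xbp1dIEC (log2 -1.16, -1.81 to -0.57). All 3 directions were the same in the 2 libraries, which share no sample.

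Myc was low in cycling large macrophages. It was at 6.82 CPM against 17.9 CPM in WT (log2 -1.28, -1.95 to -0.65). The Xbp1dIEC values were 4.31 against 17.5 CPM (log2 -1.80, -3.10 to -0.60). These rest on 17 and 4 UMIs in the cycling cells. Cdkn1b was higher in cycling cells of WT (19.3 and 11.1 CPM, log2 0.74, 0.29 to 1.17), and in Xbp1dIEC its interval included 0 (log2 0.61, -0.06 to 1.22). Cdkn1a had log2 ratios of 0.29 (0.12 to 0.45) in WT and 0.81 (0.56 to 1.06) in Xbp1dIEC. Ccnd3 had 0.32 (0.18 to 0.46) and 0.24 (-0.00 to 0.47).

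Ccnd1 gave different values in the libraries when all cycling cells were pooled. It was at 116 CPM in cycling and 175 CPM in resting WT cells (log2 -0.59, -0.76 to -0.41), and at 126 and 127 CPM in Xbp1dIEC (log2 -0.01, -0.29 to 0.25). The difference between the 2 ratios was not tested. The WT value passed 1.5-fold under 6 of the 13 alternative settings.

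Splitting the cycling cells by phase separated the D cyclins from the INK4 genes more clearly. Cells with more UMIs of replication genes than of mitotic genes are called S-side (65 in WT and 28 in Xbp1dIEC), and those with fewer M-side (101 and 52). Ccnd1 was at 209 CPM (181 to 239) in S-side and 56.2 CPM (44.7 to 69.8) in M-side WT cells, a log2 ratio of M-side over S-side of -1.88 (-2.26 to -1.51). In Xbp1dIEC it was at 297 CPM (242 to 360) and 24.5 CPM (13.4 to 41.1), a ratio of -3.55 (-4.42 to -2.76). The resting level lay between the phases in both libraries. Among genes with 30 or more UMIs 6 of 7 members were called between the phases in WT, where 26.0% of all genes were, and 4 of 5 in Xbp1dIEC, where 30.2% were.

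Ccnd3 was also higher on the S side, at 243 and 156 CPM in WT (log2 -0.64, -0.90 to -0.37) and 234 and 136 CPM in Xbp1dIEC (log2 -0.77, -1.24 to -0.31). Cdkn1a was at 178 and 110 CPM in WT (log2 -0.69, -1.01 to -0.38) and 176 and 142 CPM in Xbp1dIEC (log2 -0.31, -0.80 to 0.19). The INK4 genes ran the other way. Cdkn2c was at 107 CPM in S-side and 186 CPM in M-side cells of WT (log2 0.79, 0.46 to 1.12) and at 89.4 and 168 CPM in Xbp1dIEC (log2 0.90, 0.31 to 1.53). Cdkn2d was at 91.9 and 184 CPM (log2 1.00, 0.65 to 1.35) and at 66.3 and 175 CPM (log2 1.39, 0.73 to 2.10). Cdkn2a was at 22.2 and 49.4 CPM in WT (log2 1.12, 0.43 to 1.84), and in Xbp1dIEC it was at 17.3 and 28.0 CPM on only 22 UMIs.

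**Figure D4:**
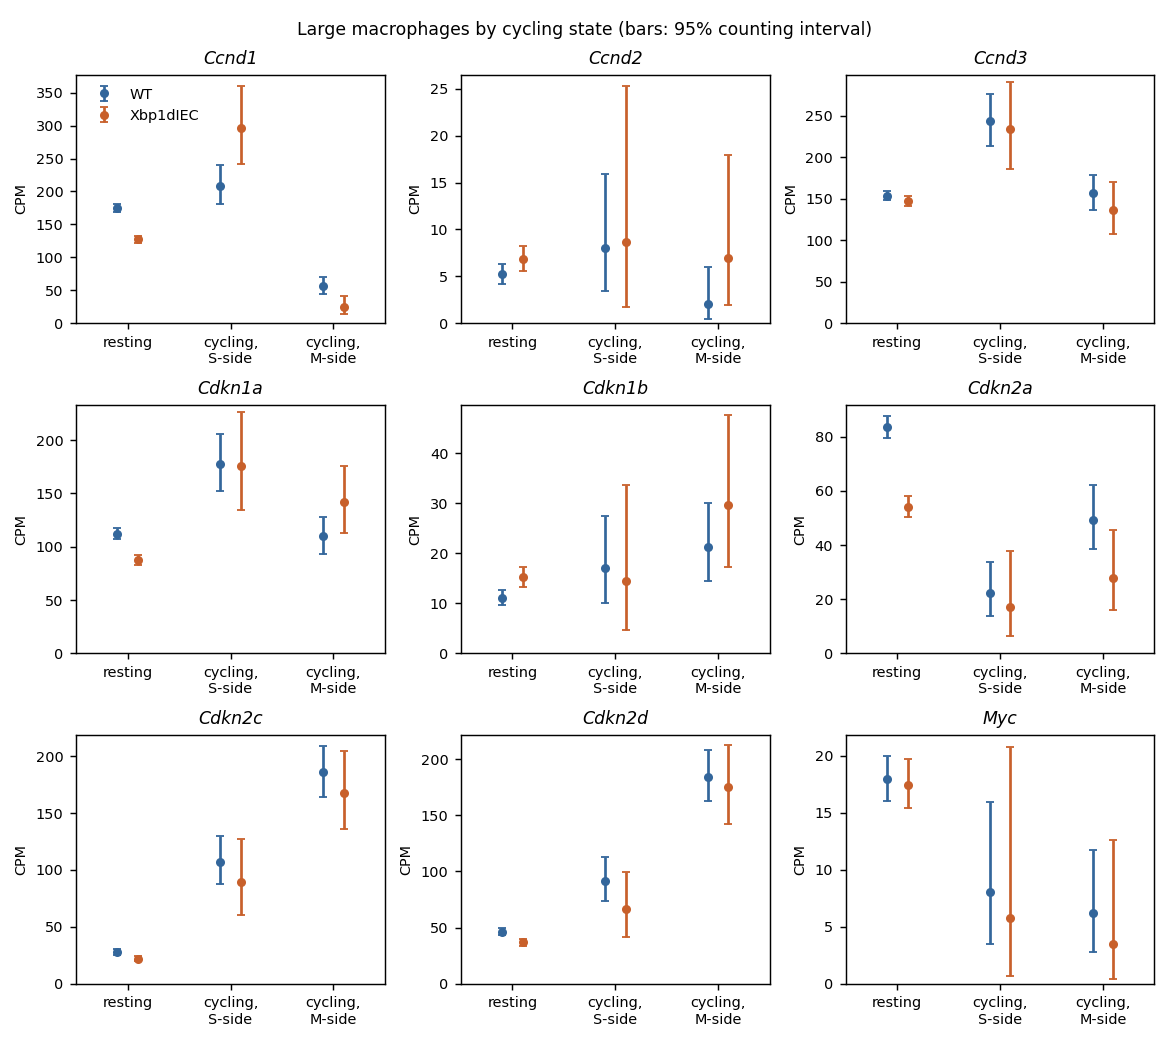
Level of each member (CPM, vertical axis starting at 0) in resting, S-side cycling and M-side cycling large macrophages of WT (blue) and Xbp1dIEC (orange); bars are exact 95% counting intervals. Ccnd1 goes from 209 CPM on the S side to 56.2 CPM on the M side in WT and from 297 to 24.5 CPM in Xbp1dIEC, while Cdkn2c and Cdkn2d are highest on the M side.

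The share of cycling cells differed between the libraries, so the ratios were also taken within each state. Among resting large macrophages alone, Cdkn2c had a log2 ratio of Xbp1dIEC over WT of -0.33 (-0.53 to -0.14), and among cycling ones -0.17 (-0.47 to 0.12), both nearer to 0 than the -0.56 of all cells. Cdkn2d had -0.32 (-0.47 to -0.17) and -0.14 (-0.44 to 0.16), against -0.43 of all cells. Cdkn2a kept its size, with -0.61 (-0.74 to -0.49) in resting and -0.73 (-1.44 to -0.08) in cycling cells. Ccnd1 had -0.45 (-0.53 to -0.37) in resting and 0.12 (-0.20 to 0.43) in cycling cells.

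Other cells held 98 cycling cells in WT and 60 in Xbp1dIEC, and 4 of 9 members were called in WT, where 27.9% of all genes were. These were 2 higher (15.3% of all genes) and 2 lower (12.6%). In Xbp1dIEC 5 of 9 were called, where 35.8% of all genes were, 3 higher (20.8% of all genes) and 2 lower (15.0%). Cdkn2c was at 126 and 23.8 CPM in cycling and resting WT cells (log2 2.35, 2.02 to 2.69), and at 133 and 13.8 CPM in Xbp1dIEC (log2 3.19, 2.74 to 3.62). Cdkn2d had log2 ratios of 1.63 (1.36 to 1.902) and 1.92 (1.55 to 2.28). Cdkn2a had -0.27 (-0.93 to 0.34) in WT and -0.67 (-2.18 to 0.62) in Xbp1dIEC, on 23 and 4 UMIs in cycling cells. Myc had -0.59 (-1.47 to 0.22) and -0.97 (-2.47 to 0.32), on 12 and 4 UMIs. The Cdkn2a and Myc intervals include 0 in both libraries. Ccnd2 was low in cycling other cells of WT, at 5.35 against 44.9 CPM, and not in Xbp1dIEC, at 33.4 against 38.3 CPM, on 6 and 18 UMIs.

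Cycling B cells were few, 19 in WT and 37 in Xbp1dIEC over all B cells, so only their levels are given. Ccnd2 was at 418 CPM (341 to 506) in cycling and 226 CPM (217 to 235) in resting WT B cells, and at 595 CPM (527 to 669) and 451 CPM (440 to 463) in Xbp1dIEC. Cdkn2c was at 52.2 and 8.26 CPM in WT and at 53.1 and 8.21 CPM in Xbp1dIEC, again higher in cycling cells. Cdkn2d was at 145 CPM (101 to 200) and 51.6 CPM in WT, and at 65.9 CPM (44.8 to 93.5) and 49.8 CPM in Xbp1dIEC. Myc was at 48.2 CPM (24.9 to 84.2) and 60.1 CPM in WT and 48.9 CPM (31.0 to 73.3) and 68.4 CPM in Xbp1dIEC, with cycling intervals that include the resting level.

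The partners of these genes at the G1/S step were taken from a list of 24 genes, of which 23 were measured in large macrophages. Of these, 7 were 1.5-fold or more lower in Xbp1dIEC and 0 were higher, where 2.71% of all genes were lower, and the median log2 ratio was -0.31 against -0.06 over all genes. Cdkn3, a phosphatase of CDKs, was at 8.59 CPM in WT and 3.61 CPM in Xbp1dIEC (log2 -1.06, -1.39 to -0.72). Cks1b, a CDK subunit, was at 55.0 and 31.0 CPM (log2 -0.81, -0.95 to -0.67), and the E2F family genes E2f2 and E2f7 had log2 ratios of -0.83 and -0.78. The share of cycling cells was also lower in Xbp1dIEC (6.93% and 3.50%), and its part in these values was not tested.

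In cycling over resting large macrophages of WT, 17 of the 23 were higher and 2 lower. Of all genes 15.6% were higher and 8.74% lower, and the median log2 ratio of the list was 1.32 against 0.05 over all genes. In Xbp1dIEC it was 12 of 19 higher and 1 lower, where 19.8% of all genes were higher and 12.4% lower, with a list median of 1.24. The cycling cells were picked by genes of S phase and mitosis, so the rise of this list may follow from the gate and is no independent evidence. Cks1b was at 330 CPM in cycling and 17.9 CPM in resting WT cells and at 324 and 12.5 CPM in Xbp1dIEC. Cdkn3 was at 74.2 and 1.01 CPM in WT (log2 5.22, 4.81 to 5.59) and at 57.1 and 0.261 CPM in Xbp1dIEC (log2 5.53, 4.99 to 5.84). In B-1 cells 17 of the 24 were measured, and Cdk6, a kinase partner of the D cyclins, was the 1 called higher in Xbp1dIEC, at 6.25 CPM in WT and 12.8 CPM in Xbp1dIEC (log2 0.93, 0.38 to 1.49). E2f3 was the 1 called lower (4.69 and 2.19 CPM, log2 -0.83, -1.54 to -0.09). Each count of 1 in 17 is near the share of all genes, 4.38% higher and 2.95% lower.

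Of the Myc network list, 11 of 14 genes were measured in large macrophages and 1 was called between the libraries, Mxd3, a MAX partner that opposes Myc (4.70 CPM in WT and 1.67 CPM in Xbp1dIEC, log2 -1.10, -1.49 to -0.68), where 3.08% of all genes were called. It was at 43.3 CPM in cycling and 0.213 CPM in resting WT cells, opposite in direction to Myc itself. Mxd4, of the same family, had cycling over resting log2 ratios of -0.84 (-1.06 to -0.62) in WT and -0.75 (-1.10 to -0.42) in Xbp1dIEC. Of the p53 target list, 0 of 14 genes measured were called between the libraries in large macrophages, with a median log2 ratio of -0.03, and at that share of all genes a count of 0 is no result about the list. Bax had -0.33 (-0.40 to -0.26), close to that of Cdkn1a, and Gadd45a had 0.45 (0.25 to 0.65). Of the quiescence and FOXO list, 0 of 9 were called there (median 0.12), and this count too is no result about the list. Klf2, a transcription factor of resting cells, was lower in cycling macrophages, with a log2 ratio of -0.73 in each library. In cycling over resting cells, 2 of 9 genes of the list were called lower in WT, where 8.74% of all genes were. In Xbp1dIEC 3 of 9 were called lower, where 12.4% of all genes were, and 0 were called higher in either library. The list median was -0.26 in WT, with 0 of 9 genes above 0, against 0.05 over all genes. In Xbp1dIEC the median was 0.04, with 5 of 9 genes above 0, against 0.09 over all genes. The difference between the libraries was not tested.

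Some of these counts may include reads of overlapping genes on the opposite strand, since the strand setting of the counting is not given in the sources used here. Ccnd1 overlaps LTO1 (489 and 470 UMIs over all kept cells, against 6096 and 3631 for Ccnd1), Ccnd3 overlaps Bysl (688 and 550 UMIs, against 7297 and 6552), and Ccnd2 overlaps 9330179D12Rik (17 and 11 UMIs, against 5542 and 10094).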

How the data were processed

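Peritoneal cells were profiled in 1 library per genotype. The deposited values are UMI counts per gene and barcode, made by the authors with Cell Ranger 2.2.0 on mm10 per the submitters' processing notes, which also name Seurat 2.3.0; the annotation and barcode filter are given in no label or header. Barcodes needed 500 UMIs, 200 genes and a mitochondrial share under 10%. Scrublet in scanpy 1.11.5 (expected rate 5%) marked 140 WT (2.26%) and 113 Xbp1dIEC (1.81%) doublets, which were removed, and 513 and 319 cells past 2 lineage lists entered no class. B cells needed 5 UMIs over Cd79a, Cd79b, Ms4a1 and a marker not reported here, T cells 3 of Cd3d, Cd3e, Cd3g, Trac, Trbc1 and Trbc2. B-1 and B-2 cells needed 2 UMIs of their own list and more than of the other. Intervals are Poisson, Clopper-Pearson or conditional binomial and cover counting error only. The ratio step was tested on simulated data. The rule named all 9 members, up to 4 genes with the largest ratio of each pathway list and 3 like genes per member. The members and lists were chosen with earlier results of these data known. Gene positions are from GENCODE M21. Analyses used Python 3.11.15, numpy 2.4.6, scipy 1.17.1 and pandas 2.3.3.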

Additional observations from a re-analysis of the deposited data

Results flagged for a closer look

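The ratio of Ccnd3 between the libraries had opposite signs in different cell classes. Its log2 ratio of Xbp1dIEC over WT was 0.72 in B-1 cells and 0.42 in B-2 cells, and -0.11 in large macrophages. The intervals of the 3 values do not include 0, but with the narrow B gates the B-2 value turned to -0.14 (-0.53 to 0.23), so the opposite direction does not hold for B-2 cells there. In large macrophages the median of all genes was itself -0.06. In resting large macrophages Ccnd3 was at -0.06 (-0.14 to 0.02), an interval that includes 0. The difference between the classes was not tested, since there is 1 library per genotype.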

How the results depend on the processing

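No paired analysis was possible because each genotype has 1 library and the labels carry no replicate numbers that would pair libraries, and leaving out a replicate would leave none. Of the values that answer a comparison, 329 recomputed under another setting stayed within the counting interval of the reported value, or for counts within 1.5 times of it, and 22 did not. Counting error is the only error measured, and a gene under 30 UMIs was not called, though its ratio may be printed with its UMIs.

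The remaining values, all log2 ratios of Xbp1dIEC over WT unless named, were as follows. Ccnd2 in B-1 cells was 0.73 by the mean of cell fractions and 0.61 with B gates by the B-2 list alone. Ccnd2 in B-2 cells was 0.97 after thinning, 0.99 in resting cells and 0.59 with the narrow B gates, where Ccnd3 was -0.14 and Ccnd1 reversed to 0.031 on 10 UMIs. In large macrophages Ccnd1 was -0.49 after thinning, Cdkn2a was -0.70 with a mitochondrial share under 5%, and Cdkn2c was -0.33 in resting cells. Cdkn2c in other cells reversed to 0.12 on 50 UMIs with a macrophage gate that needs no Gata6 or Timd4 UMI. The count of members lower in large macrophages went from 0 to 1 with a mitochondrial share under 5% and to 1 in resting cells, and to 2 with the wider macrophage gate. The count higher in B-1 cells went from 2 to 1 with a mitochondrial share under 5%, where 6.73% of all genes were called either way.

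For cycling over resting large macrophages of WT, Cdkn2c was 2.06 after thinning, 2.12 with 10 CPM added and 2.24 with cycling set at 2 or more UMIs, and Ccnd1 was -0.37 at 2 or more and -0.81 at 5 or more UMIs. In Xbp1dIEC, Cdkn2c was 2.21 with 10 CPM added, and Ccnd1 lay between -0.22 and 0.08 over 13 settings. For M-side over S-side cells after thinning, Ccnd1 in WT was -1.44 and Cdkn2c was 0.45 in WT and 2.197 in Xbp1dIEC, the last 2 on 50 and 29 UMIs. The cause of these shifts was not tested. The narrow B gates, the wider macrophage gate and the T gate without class II cells were chosen after seeing the data.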

Other observations

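Some cells entered no class and their levels are given here. In B cells that neither the B-1 nor the B-2 list assigned (244 in WT and 271 in Xbp1dIEC), Ccnd2 was at 238 and 398 CPM, between the levels of B-2 and B-1 cells in WT, Ccnd3 at 92.7 and 120 CPM and Myc at 67.4 and 81.9 CPM. Cells past 2 or more of the macrophage, B and T lists (513 and 319) can hold any pair of these lineages. In them Ccnd2 was at 230 and 390 CPM, Ccnd1 at 43.6 and 36.1 CPM and Cdkn2a at 11.3 and 4.80 CPM.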
